A study of Mus musculus with 22 samples.

Results

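Full-length DUX was compared with C3+14, a DUX derivative that carries a single C3 repeat, to ask which gene programmes the short construct raised above the level reached by the whole protein and which it left below it. Members were chosen by construct: both C3+14 libraries and both full-length (FL) libraries of the chimera table, 4 of the 14 libraries in that table and of the 22 samples in the series. All groups used here were mouse embryonic stem cells of a Dux-/- line kept in 2iLIF, a medium with inhibitors and the cytokine LIF that holds the cells in a naive pluripotent state. Each line carried a doxycycline-inducible transgene for mCherry, a red fluorescent protein, alone or joined to FL Dux or to C3+14, and received doxycycline at 0.25 ug/mL for 12 hours. The mCherry group, also 2 libraries, gave the background level. The labels do not say which residues C3 and 14 stand for, whether a line was clonal, or whether replicates were separate cultures, so p-values measure the spread between these libraries only.

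Mouse DUX is a transcription factor with homeodomains at its amino-terminal end that bind DNA and a long carboxy-terminal part that activates transcription. It is made briefly in the 2-cell embryo, where it helps to start the embryonic genome. Forced expression in embryonic stem cells switches on genes of that stage, among them Zscan4, Zfp352, Tcstv, Usp17-like and Obox genes and MERVL retroviral elements, and is toxic when it lasts. Many of these genes lie in clusters of near-identical copies, which is why genes with shared sequence were kept apart below.

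The libraries held 32168300 and 31391063 reads for FL, 21059953 and 22052011 for C3+14, and 31203170 and 23949774 for mCherry. FL replicates were further apart than C3+14 replicates, with 4340 against 2283 genes differing more than 2-fold between them. Values are given as normalised reads, the deposited read count divided by a size factor per library. Neither Duxf3 nor Gm4981, annotated Dux genes, had a read in any of the 14 libraries, so they do not check the labels, and the amount of each transgene product was not analysed here. In bulk RNA, fewer responding cells and less RNA per cell cannot be told apart. Genes were called low-copy when under 10% of the 50-base stretches of their transcripts occur in another gene, and shared-sequence otherwise. A set of 1637 high-copy genes, in which at least 50% of the 50-base stretches recur in 20 or more genes, held 2.07% and 1.91% of the reads in FL but 0.299% and 0.300% in C3+14, near the 0.320% and 0.350% of mCherry. Among the other groups of the table, the chimeras C1C3a, C1C3b and C1C3c held 2.07% and 1.81%, 2.04% and 2.02%, and 1.81% and 1.67%. The construct C1+14 held 1.94% and 2.16%. For shared-sequence genes, how their reads were counted and which construct was expressed therefore cannot be told apart. C3+14 and mCherry were alike in this share and FL was not. Whether that difference reaches low-copy genes was not tested. All 8 embryonic stem cell markers in the list used were present in every FL and C3+14 library. None of the 8 was called between the constructs by limma, edgeR or DESeq2, and 4 had an unadjusted limma p under 0.05, as had 10627 of all 21584 genes tested.

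C3+14 exceeded FL at many more low-copy genes than it fell short of. Calls came from limma, a linear model fitted here over all 14 libraries, and needed at least a 2-fold difference and a p under 0.05 after Benjamini-Hochberg adjustment. Of 21584 genes tested, 5686 were called (26.3%), 3627 of them higher in C3+14 (16.8%) and 2059 lower (9.54%). Among 14944 low-copy genes 3478 were called (23.3%), 2701 of them higher (18.1%) and 777 lower (5.2%), so that 77.7% of the low-copy calls were higher. That split was 67.6% after quantile normalization and 87.9% with scaling by total reads. Among 6551 shared-sequence genes 2183 were called (33.3%), 918 of them higher (14.0%) and 1265 lower (19.3%), and 963 of these 1265 were pseudogenes. With scaling by total reads the shared-sequence calls were 1067 higher and 1036 lower. The plot of all genes shows this contrast as a broad red band above the diagonal on the left and a scatter of deep blue points on the right.

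**Figure D1:**
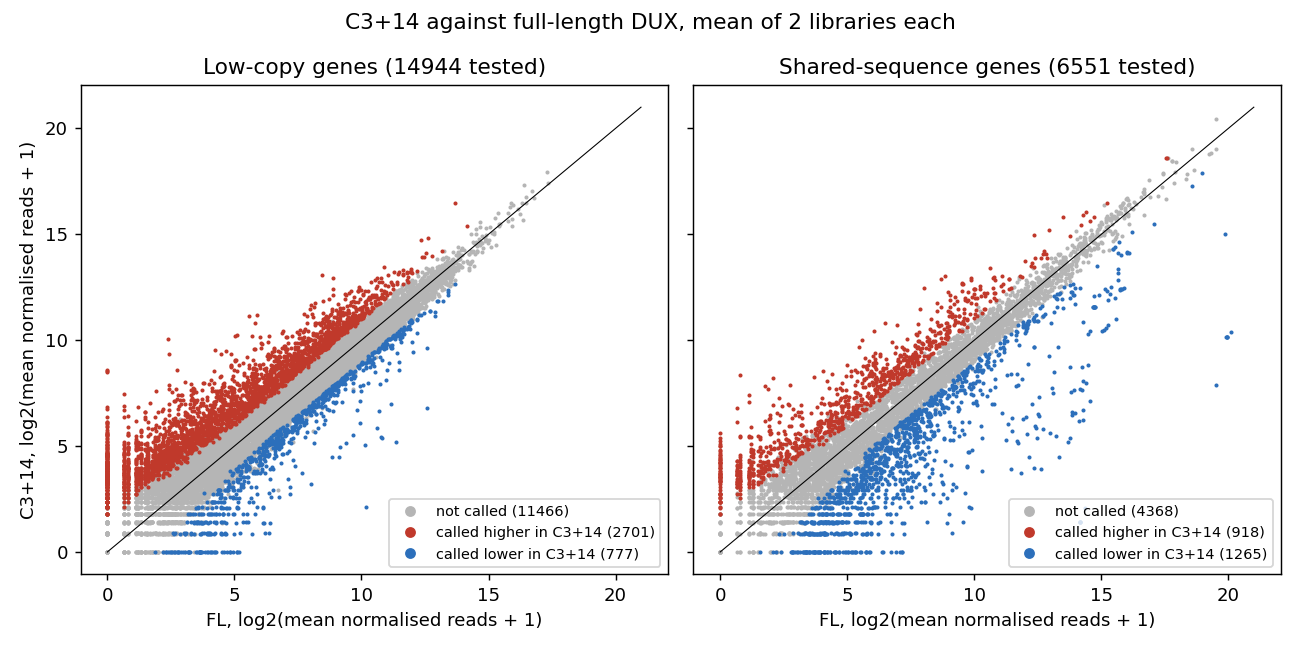
Mean normalised reads in FL (x axis) and in C3+14 (y axis), both as log2(mean + 1), for low-copy genes (left) and shared-sequence genes (right), each point 1 gene and the mean of 2 libraries. Genes called higher in C3+14 are red (2701 and 918), genes called lower blue (777 and 1265), and the line marks equal levels; the genes that lie farthest below the line are in the right panel.

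The median log2 difference of C3+14 from FL was 0.08 over all genes tested, 0.15 over low-copy genes and -0.14 over shared-sequence genes. These medians moved with the scaling: over all genes the median was 0.31 with scaling by total reads, -0.02 after quantile normalization and -0.01 with size factors from low-copy genes. Where the mCherry level stood differed between the directions. Of the 2701 low-copy genes higher in C3+14, mCherry lay below both constructs in 42.1%, between them in 40.9% and above both in 17.0%. Of the 777 that were lower, it lay above both in 51.1% and below both in 20.6%. Over all low-copy genes tested the shares were 38.2% below, 20.9% between and 40.9% above. In the same fit FL differed from mCherry at 9531 genes (44.2%) and C3+14 at 10205 (47.3%). Both use the same mCherry libraries. The directions of these calls turned with the scaling. FL had 5290 genes higher and 4241 lower than mCherry, but 4353 and 5339 after quantile normalization and 3584 and 9239 with scaling by total reads. C3+14 had 6391 and 3814, but 4780 and 5480 and then 4408 and 7392.

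Promoter windows were searched because the constructs were made from a DNA-binding factor and because groups of genes moved together. Windows run from 250 bases before to 50 after each RefSeq start (GRCm38.p6), and both strands were searched. The longest motif, a palindromic DUX-type one, was GATTNAATC with a T before it and an A after it. It was found in 11 of 32851 windows (0.0335%) and in none of the low-copy genes called between the constructs, of which 1751 higher and 489 lower ones had a window. Its central part GATTNAATC lay in 0.268% of all windows, and in 0.219% of low-copy genes tested, 0.286% of those higher in C3+14 and 0 of those lower. Among shared-sequence genes it lay in 17 of 2475 tested ones with a window (0.687%). Of those lower in C3+14 it lay in 9 of the 132 with a window (6.82%), 6 of them genes of the chromosome 10 array, whose copies share their sequence. The rest were Gm13043, Gm13040 and Gm13057, whose windows lie on chromosome 4 between 143511093 and 143551749. The shorter TGATTNA, which the longest motif contains, lay in 10.3% of all windows, in 8.13% of low-copy genes tested, in 11.4% of those higher in C3+14 and in 6.13% of those lower. Among shared-sequence genes it lay in 9.54% of those tested, in 13.1% of those higher in C3+14 and in 12.1% of those lower. A match is a description of letters, not a bound site.

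The stretches below are shown because they carry such letters in genes described further on: an array gene far below FL, 2 Zscan4 genes not called, and 2 genes far above FL, with the matching letters in capitals and each written 5′ to 3′ on the strand of its gene. Gm21293 lies at chr10:104142821-104142869 on the plus strand and holds GATTNAATC. The others hold TGATTNA or its reverse complement, at chr7:11005541-11005587 (plus) for Zscan4c, chr7:11166317-11166363 (minus) for Zscan4d, chr2:87506435-87506493 (plus) for Pramel6 and chr6:52164889-52164961 (minus) for Hoxa2.
Gm21293: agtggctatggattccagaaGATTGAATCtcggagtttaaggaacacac
Zscan4c: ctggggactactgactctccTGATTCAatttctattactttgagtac
Zscan4d: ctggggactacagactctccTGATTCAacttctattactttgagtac
Pramel6: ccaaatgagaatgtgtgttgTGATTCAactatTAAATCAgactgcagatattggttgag
Hoxa2: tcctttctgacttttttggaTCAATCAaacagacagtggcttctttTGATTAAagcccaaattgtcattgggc
In the part of the window before the start, Zscan4c and Zscan4d, which were not called between the constructs, carry 1 match each. Pramel6 and Hoxa2 carry 2 there. In the same part, Zfp352, Abcb5, Cdkn1a and Klf4, all higher in C3+14, had none. That says only that these letters are not in the bases searched before those starts. For these single genes, matches after the start were not counted.

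The low-copy genes of the 2-cell programme were on balance higher with C3+14. Of 14 listed genes found and tested, 7 were higher and 1 lower, and among the 10 that were low-copy the counts were 5 and 1 with a median log2 difference of 0.93, beside 0.15 for all low-copy genes. Of all low-copy genes tested, 18.1% were higher and 5.2% lower. Zfp352, a retrotransposed zinc-finger gene used as a mark of the 2-cell stage (chromosome 4, 90218820 to 90225702, GRCm38), had 0 reads in both mCherry libraries, 7784 and 4634 normalised reads in FL and 28261 and 30663 in C3+14. Both C3+14 libraries lay far above both FL libraries, a log2 difference of 2.29 (SE 0.40, limma adjusted p 6.32e-04). Abcb5, an ATP-binding transporter, had 315 and 282 in FL, 1736 and 1819 in C3+14 and at most 2.57 in mCherry, a difference of 2.57 (SE 0.40). Rfpl4b stood at 436 and 257 in FL and at 1717 and 2033 in C3+14, with 0 in mCherry, a difference of 2.48 (SE 0.57). Again the groups did not overlap, which was true of 69.9% of all genes tested.

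Ubtfl1, a gene of the preimplantation embryo related to the nucleolar factor UBTF, was higher by 1.68 on the log2 scale, and Ddit4l by 1.17. Arg2 and Dppa2 were higher by 2.17 and 1.55, but 21.2% and 29.1% of their sequence is shared. Dppa2, a chromatin protein known as an activator of Dux itself, had 6571 and 4109 normalised reads in FL, 15362 and 15050 in C3+14 and 2768 and 2756 in mCherry. Its partner Dppa4 differed by 0.47 and was not called. Tmem132c was the single listed gene that was lower, with 536 and 493 in FL, 253 and 227 in C3+14 and 38.3 and 47.2 in mCherry, a difference of -1.10 that was -0.85 and no longer called with scaling by total reads. Tmem92 and Spz1, both near 0 in mCherry, were not called between the constructs, with log2 differences of -0.70 (SE 0.44) and 0.68 (SE 0.82). Sp110 differed by 1.15 with an adjusted p of 0.0662, and Patl2 by -0.05. Nelfa, a subunit of the complex that pauses RNA polymerase II, differed by 0.69 and stayed short of the 2-fold limit.

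**Figure D2:**
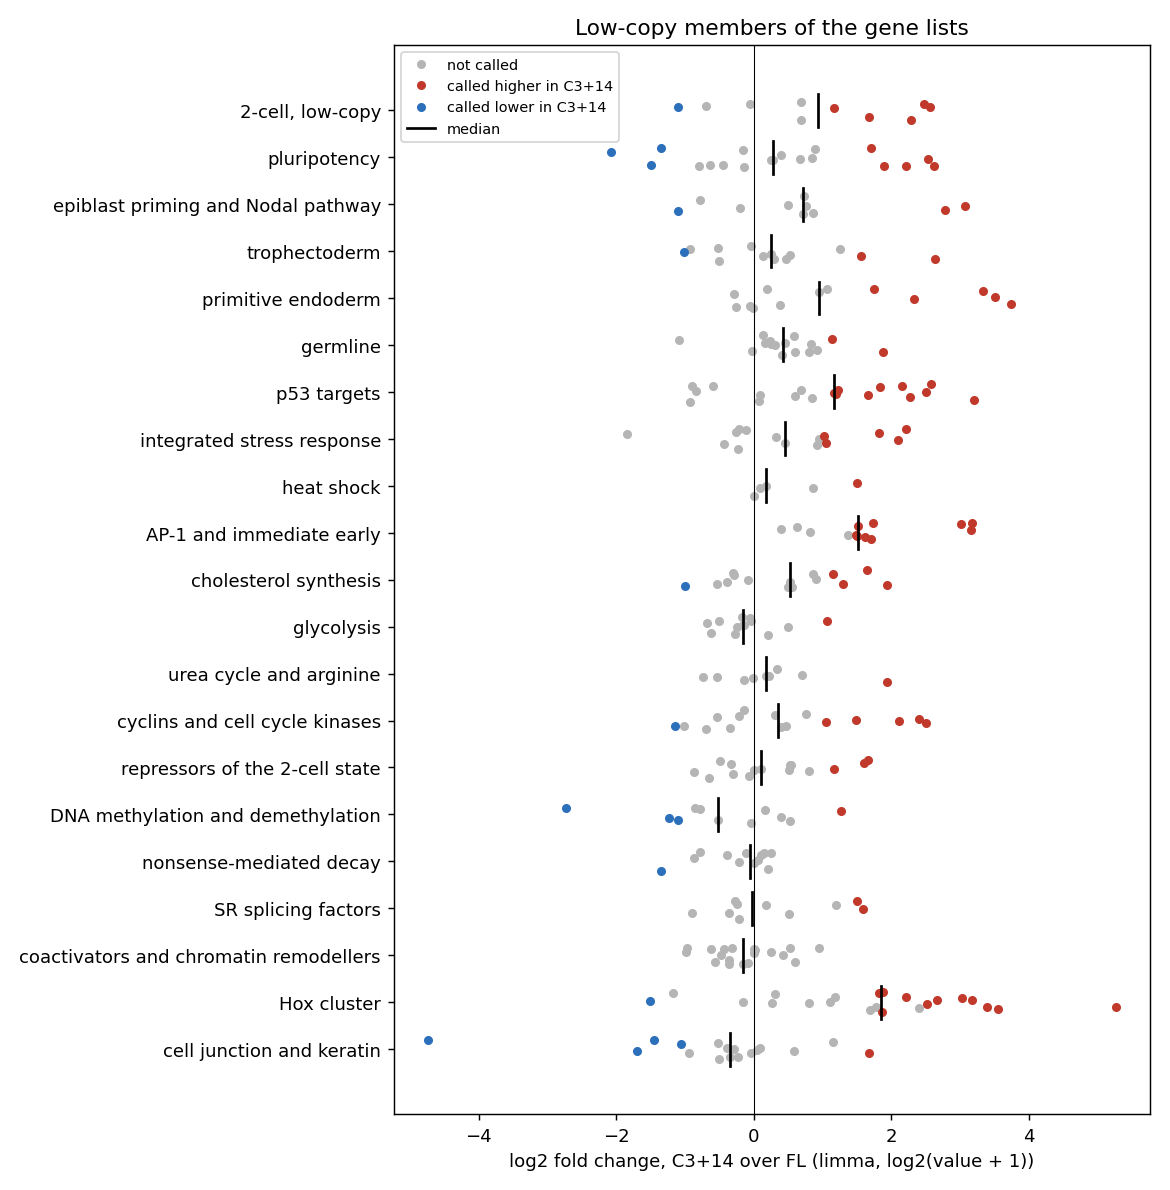
Log2 fold change of C3+14 over FL for the low-copy members of 21 gene lists, each point 1 gene, with red for genes called higher in C3+14, blue for genes called lower, grey for the rest and a black bar at the median of each list. The p53 target, AP-1 and Hox lists have medians of 1.17, 1.53 and 1.85, whereas the medians of the glycolysis, splicing and coactivator lists are -0.16, -0.02 and -0.16.

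Among the multi-copy 2-cell families, the constructs were close for some and far apart for others. Apart from Obox6, 3 Obox pseudogenes and 7 Pramel or Pramef genes, the members tested have shared sequence, so their levels are uncertain and the limit given above on how their reads were counted applies to them. As background for the family counts, 14.0% of all shared-sequence genes tested were higher and 19.3% lower. For low-copy genes these shares were 18.1% and 5.2%. The 9 Zscan4 genes, which encode zinc-finger proteins linked to telomere maintenance, had 0 reads in mCherry. Zscan4c (chromosome 7, 11005745 to 11010547, 85.5% shared) had 847976 and 465303 normalised reads in FL and 440221 and 483624 in C3+14. The C3+14 libraries thus lay at about the level of the lower FL library, and the log2 difference of -0.45 (SE 0.38, limma adjusted p 0.368) was not called and was 0.50 after quantile normalization. Zscan4d differed by -0.63 (SE 0.29, adjusted p 0.0988) and was called lower, at -1.10, without FL replicate 2. Zscan4b and Zscan4e differed by -1.23 and -1.02 and were called lower, calls that were lost without FL replicate 1, where the differences were -0.80 and -0.62. Without either C3+14 library Zscan4e was at -0.95 and -1.08 and not called. Both calls were also lost with a pseudocount of 0.25, after quantile normalization (-0.54 and -0.25) and with scaling by total reads (-0.98 and -0.77), and that of Zscan4e in edgeR and in a fit of the 4 libraries alone. The median of the family was -0.55.

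Tcstv1 and Tcstv3 were not called, and their differences of -0.36 and -0.31 became 0.61 and 0.50 without FL replicate 1, since that library held 3265 and 45659 normalised reads against 846 and 14812 in FL replicate 2. Without FL replicate 2, Tcstv1 was called lower, at -1.34. Of 6 Usp17-like genes, which code for deubiquitinating enzymes, Usp17lc and Usp17lb were higher by 1.27 and 1.12 and Usp17le-ps was lower, at -2.003. Usp17lc had 21801 and 15398 in FL and 43076 and 45567 in C3+14. The Usp17lb call was lost without FL replicate 2 (0.92), and that of Usp17le-ps without FL replicate 1 (-1.51) or C3+14 replicate 1 (-1.65). Usp17le, at -0.75, was called lower (-1.11) without FL replicate 2. The 3 Duxbl genes, paralogs of Dux, were level: Duxbl1 had 2247 and 2012 normalised reads in FL, 2255 and 2224 in C3+14 and 10.6 and 11.2 in mCherry, a log2 difference of 0.07 (SE 0.33, adjusted p 0.876). The 6 Obox coding genes tested, homeobox genes of the oocyte and early embryo, included 1 call, Obox6, the only low-copy member, which was higher by 1.502.

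Other families exceeded their FL level. The Tdpoz genes encode speckle-type proteins with TRAF and POZ domains, and 3 of 5 were higher, with a family median of 2.38. Tdpoz5 had 648 and 270 normalised reads in FL and 8255 and 8505 in C3+14, a log2 difference of 4.32 (SE 0.41) that was 4.95 and 3.69 without FL replicate 1 and 2, although 100% of its sequence is shared. Tdpoz2 and Tdpoz4 were higher by 2.97 and 2.38, while Tdpoz1 and Tdpoz3 differed by 0.37 and 0.20 and were not called. All 3 Trim43 genes were higher, led by Trim43a, which had 19.2 and 21.4 in FL, 333 and 340 in C3+14 and 8.58 and 5.15 in mCherry. Trim43c, at 3.54, was 1.93 without FL replicate 1 and 5.15 without FL replicate 2, both called, and was not called in a fit of the 4 libraries alone. Of 8 Eif1a-like genes, copies related to a translation initiation factor, 4 were called higher: Gm4027 at 1.68, Gm2016 at 1.26, Gm2022 at 1.25 and Gm10696 at 1.21. Leaving out any 1 of the 4 libraries ended the first 3 of these calls, with differences between 1.57 and 1.78 for Gm4027, between 1.18 and 1.35 for Gm2016 and between 1.21 and 1.29 for Gm2022. Gm10696 kept its call only without FL replicate 1. The 3 Cphx genes had 1 read at most in an FL library and 4 to 6 reads in a C3+14 library, so their folds are at least 2.07 to 2.27, and all 3 were lower in both constructs than in mCherry. DESeq2 called none of the 3 (Cphx1, Cphx2 and Cphx3), while edgeR called all 3, as did limma, where 3 had an unadjusted p under 0.05. Cphx1 at 2.62 was not called without FL replicate 1 (2.05) or C3+14 replicate 1 (2.34).

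The Pramel and Pramef genes, a family of leucine-rich repeat proteins active in germ cells and early embryos, were divided. Of 13 tested, 5 were higher (Pramel6, Pramef8, Pramef17, Pramel7 and Pramel1) and 2 lower (Pramef20 and Pramef6), and 7 of the 13 are low-copy. Pramel6 had 566 and 383 normalised reads in FL, 4473 and 4376 in C3+14 and 19.14 and 14.58 in mCherry, a log2 difference of 3.25 (SE 0.63, limma adjusted p 0.00129). Pramef8 followed another course, with 279.9 and 248.8 in FL, 2398 and 2438 in C3+14 and 1039 and 953 in mCherry. It therefore lay below mCherry with FL and above it with C3+14. Pramef20 went the opposite way, with 51.6 and 65.5 in FL but 2 reads in each C3+14 library, and was at least 11.8-fold lower. Pramef6 at -1.09 was not called without FL replicate 1 (-0.76), nor was Pramel7 at 2.77 without C3+14 replicate 1 (2.63). Pramef17 at 2.94 was 2.13 and 3.75 without FL replicate 1 and 2.

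C3+14 left 2 large groups of copies far below the FL level. The array of 7 related predicted genes at chromosome 10, 104142987 to 104196522 (GRCm38), took 19.2% and 12.3% of all FL reads but 0.102% and 0.116% of C3+14 reads, and 0 in mCherry. Gm6763, of which 100% of the sequence is shared, had 992688 and 512405 normalised reads in FL and 216.1 and 255.9 in C3+14, a log2 difference of -11.56 (SE 0.27). Gm21293, which it overlaps, had 1494389 and 748954 in FL and 1345 and 1312 in C3+14, and Gm20765 differed by -9.74. mCherry had no read in either gene. Gm4340, in the same array, kept 30258 and 35088 in C3+14, a difference of -4.78. Gm20767, a related gene on chromosome 13, was not called, with 197135 and 106345 in FL and 115430 and 111334 in C3+14.

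The Obox pseudogenes formed the other group: of 34 tested, 25 were lower and 1 higher, with a median of -5.57 (-5.33 with genes at the floor of 3 reads set to their bound). Among all 2633 shared-sequence pseudogenes tested, 36.6% were lower and 9.46% higher, with a median of -0.711. Obox4-ps22 (chromosome 7, 15252612 to 15254325, 100% shared) had 18105 and 18991 normalised reads in FL and 1 read in each C3+14 library, at least 3753-fold lower. Its neighbours Obox4-ps20 and Obox4-ps21 also had 1 read in each C3+14 library and were at least 3738-fold lower each, with FL counts that differed by at most 2 reads between these neighbours. The single higher member, Obox3-ps7, is low-copy and had 4.42 and 3.57 in FL and 30.2 and 25.9 in C3+14. The chimera C1C3a, whose libraries resemble FL in their share of high-copy reads, had 2439 and 3825 for Obox4-ps22 and 451645 and 645088 for Gm6763. For Obox4-ps22, C1C3b, with 2.04% and 2.02% of its reads in high-copy genes, had 73.7 and 73.2. C1C3c, with 1.81% and 1.67% of its reads in high-copy genes, had at most 1.35 for Obox4-ps22. Whether the counting of reads bears on these levels was not tested.

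**Figure D3:**
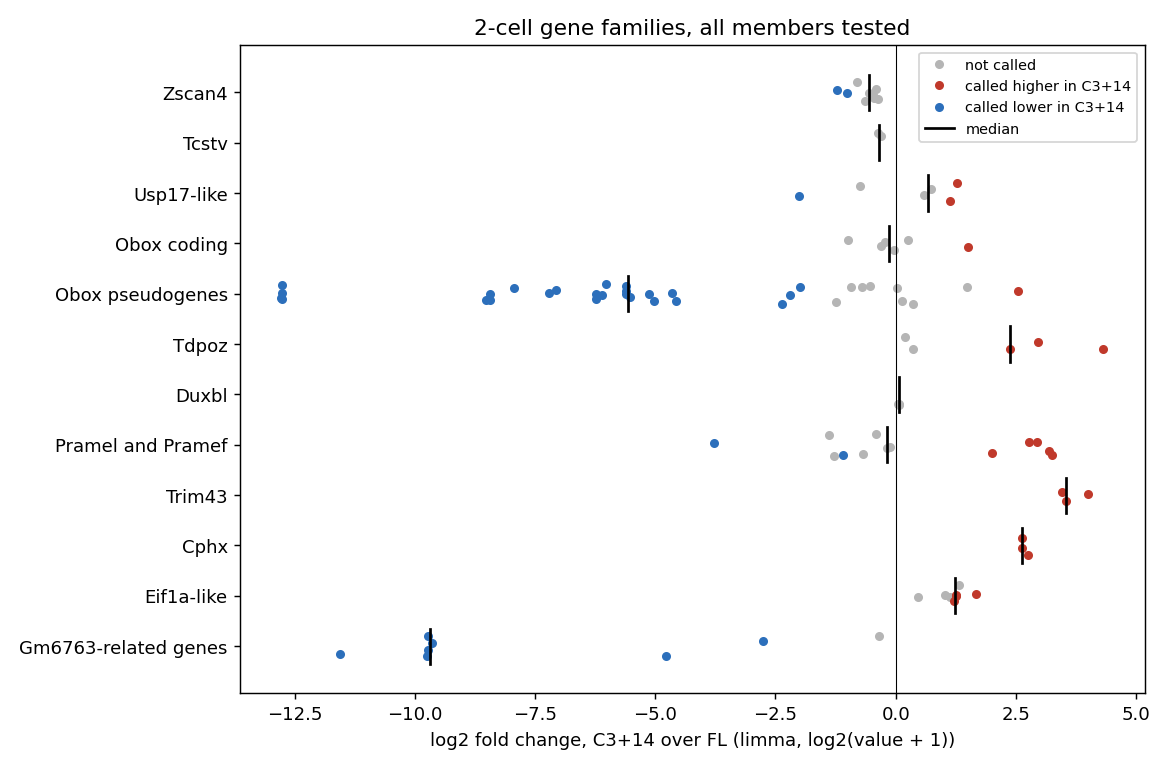
Log2 fold change of C3+14 over FL for every tested member of 12 multi-copy families, colours and bars as in the plot of gene lists. The Obox pseudogenes and the Gm6763-related genes, 8 genes of which 7 lie on chromosome 10, reach -12.77 and -11.56, while the Tdpoz and Trim43 medians are 2.38 and 3.54.

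Target genes of p53, the transcription factor that restrains the cell cycle and triggers apoptosis after damage, were divided, some higher with C3+14 than with FL and others not called. Of 20 listed genes tested, limma, edgeR and DESeq2 each called 10 higher and 0 lower, with 2 lower ones at an unadjusted limma p under 0.05. Over all genes tested limma called 16.8% higher and 9.54% lower. All 10 limma calls were low-copy, with a median over the 19 low-copy members of 1.17 beside 0.15 for all low-copy genes. Cdkn1a, the cell cycle inhibitor p21, had 1989 and 1984 normalised reads in mCherry, 246 and 395 in FL and 1788 and 1770 in C3+14. The C3+14 libraries were near mCherry and both FL libraries far below, a log2 difference between the constructs of 2.51 (SE 0.22, limma adjusted p 2.66e-06). Sesn2, a regulator of TOR signalling, had 3839 and 3865 in mCherry, 933 and 1178 in FL and 4453 and 4886 in C3+14. Trp53inp1, an autophagy and cell death factor, and Ccng1, a cyclin that feeds back on p53, were likewise lowest with FL, with differences between the constructs of 2.27 and 1.66. So were Mdm2, the ligase that degrades p53, at 1.20, the antiproliferative gene Btg2 at 1.17 (0.91 and not called without FL replicate 1) and the DNA polymerase gene Polk at 1.23.

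Against mCherry, 13 of the 20 genes were lower with FL and 1 higher (19.6% and 24.5% of all genes tested), whereas with C3+14 3 were lower and 3 higher (17.7% and 29.6%). Eda2r, a receptor of the tumour necrosis factor family, was below mCherry with FL and above it with C3+14, at 1450 and 1382 in mCherry, 410 and 426 in FL and 3815 and 3947 in C3+14. Plk2, a polo-like kinase, was not called between FL and mCherry but reached 10994 and 11553 with C3+14 against 1982 and 1783 with FL. Pmaip1, the apoptosis gene Noxa, was above mCherry with both constructs, at 172 and 156 in mCherry, 766 and 952 in FL and 3071 and 3051 in C3+14. The list did not move as a whole. Bbc3 and Perp, both apoptosis genes, and the cytokine gene Gdf15 stayed at the low FL level with C3+14: Bbc3 had 533 and 532 in mCherry, 19.2 and 76.2 in FL and 21.8 and 17.8 in C3+14. Bbc3 was called lower without FL replicate 1 (-1.90), and Perp without FL replicate 2 (-1.23) or C3+14 replicate 2 (-1.20). Bax, Fas, Zmat3, Aen, Phlda3, Sesn1 and Rrm2b were not called between the constructs.

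**Figure D4:**
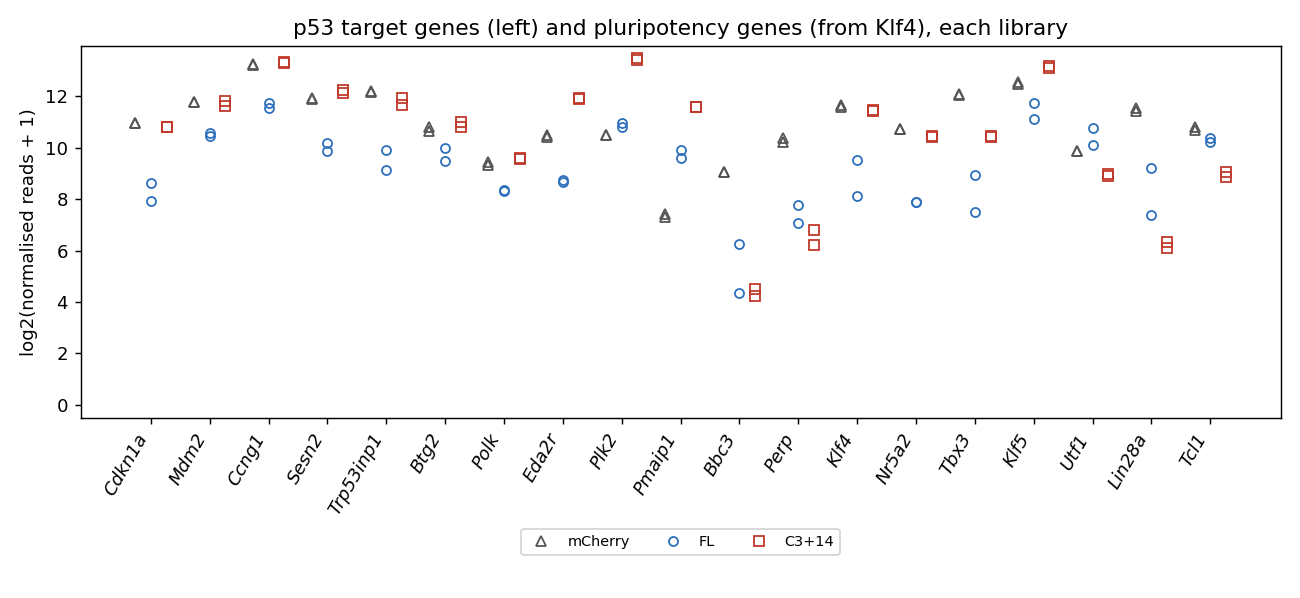
Normalised reads as log2(value + 1) in each library of mCherry (triangles), FL (circles) and C3+14 (squares) for 12 p53 target genes, from Cdkn1a to Perp, and 7 pluripotency genes, from Klf4 to Tcl1. For 10 of the 12 p53 targets and for Klf4, Nr5a2, Tbx3 and Klf5 both C3+14 libraries lie above both FL libraries, and for Utf1, Lin28a and Tcl1 both lie below.

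Immediate early genes, which respond within minutes to growth factors and stress, were higher in most cases. Of 14 tested, 9 were higher and 1 lower, beside 16.8% and 9.54% of all genes tested, with a low-copy median of 1.53. Fosl2, an AP-1 subunit, had 40.9 and 34.3 normalised reads in mCherry, 11.8 and 30.9 in FL and 159 and 202 in C3+14. Myc had 263 and 259 in mCherry, 23.6 and 4.76 in FL and 102 and 112 in C3+14, and Junb had 437 and 512, 10.3 and 10.7, and 83.8 and 102 in the same order. For Myc and Junb, C3+14 lay between FL and mCherry. The log2 differences of Fosl2 and Myc, 3.16 and 3.18, were 2.498 and 4.23 without FL replicate 1 and 3.82 and 2.13 without FL replicate 2. The AP-1 genes Fos and Jun were higher by 1.73 and 1.48, and Dusp1, Ier5, Klf6 and Zfp36 by 1.498 to 1.702. The lower member was Jund at -1.12, of which 48.3% is shared and whose difference was -0.84 without C3+14 replicate 2. Egr1, Ier2, Ier3 and Nr4a1 were not called, although Ier3 and Nr4a1 were, at 1.93 and 1.08, without FL replicate 2. In the integrated stress response, driven by the translation-controlled factor ATF4, limma called 5 of 17 genes higher and 0 lower. Over all genes tested the shares were 16.8% and 9.54%. An unadjusted limma p under 0.05 was found for 3 lower members. edgeR called 5 higher and 1 lower, and DESeq2 4 higher and 1 lower.

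Within that response Atf3 was higher by 2.22, Ddit3, the factor CHOP, by 2.10, the pseudokinase gene Trib3 by 1.83, Atf4 by 1.06 and Vldlr by 1.02. Trib3 was at 1.16 and 2.49 without FL replicate 1 and 2, and Vldlr, the weakest, was 0.26 without FL replicate 1 and not called without that library or either C3+14 library (0.94 and 1.10). Atf4 had 5781 and 5673 normalised reads in mCherry, 838 and 876 in FL and 1763 and 1808 in C3+14, so that it was below mCherry with both constructs. Chac1, a gene of glutathione breakdown, was at -1.84 and was called lower, at -2.59, without FL replicate 1, and Ddit4 and Stc2 were called higher, at 1.65 and 1.12, without FL replicate 2. The amino acid genes Asns, Psat1, Phgdh, Shmt2 and Mthfd2 were not called between the constructs. In the heat shock list 1 of 13 was called, the co-chaperone gene Bag3, at 1.497 and at 0.90, no longer called, without FL replicate 1.

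Hox genes, the homeobox genes that pattern the body axis and are normally near silent in embryonic stem cells, included many that exceeded FL with C3+14. Of 28 tested, 13 were called higher, 1 lower and 14 not called, beside 16.8% higher and 9.54% lower over all genes tested. The low-copy median was 1.85. It was 1.87 with genes at the floor in 1 group set to their bound and the 1 at the floor in both left out. Hoxa2, of which 12.8% is shared, had 0 reads in both FL libraries, 0 and 1 in mCherry and 41.9 and 55.1 normalised reads in C3+14, at least 12.1-fold higher. Hoxa9 had 1.47 and 8.33 in FL, 3.96 and 1.72 in mCherry and 174 and 196 in C3+14, a log2 difference of 5.27 (SE 0.66, limma adjusted p 4.76e-05) that was 4.31 and 6.23 without FL replicate 1 and 2. Members of all 4 clusters were called, among them Hoxa13 at 3.40, Hoxb9 at 3.03, Hoxc6 at 3.18 and Hoxd1 at 2.66. Without FL replicate 1, Hoxb9 and Hoxc6 were at 2.18 and 2.47, and Hoxd13, at 1.87 with both libraries, was at 1.05 and not called. Without FL replicate 2, Hoxa3, at 2.33 with both and 24.3% shared, was at 0.85 and not called, nor was it without either C3+14 library (2.04 and 2.62), while Hoxa10, Hoxb13, Hoxc5, Hoxc11, Hoxd8 and Hoxd9 became calls. For Hoxa2, Hoxa9, Hoxa13 and Hoxc6, FL and mCherry were not called apart, whereas Hoxc12 and Hoxb9 were lower with FL than with mCherry, with 131 and 125 in mCherry, 16.2 and 8.33 in FL and 164 and 134 in C3+14 for Hoxc12. The lower member, Hoxc10, was called on few reads, at -1.51, and without FL replicate 2 or C3+14 replicate 1 it was -1.08 or -0.95 and not called. It was also lost in edgeR, in DESeq2, with a pseudocount of 8, with no filter, with scaling by total reads and in the fit of the 4 libraries alone, and neither edgeR nor DESeq2 called any Hox gene lower, with 1 at an unadjusted limma p under 0.05.

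Some genes of other lineages were higher and others in their lists were not called. Of 14 primitive endoderm genes, 6 were higher and 0 lower, beside 16.8% and 9.54% of all genes tested. The median over low-copy members was 0.95, and 0.38 without the 2 genes at the floor of 3 reads in both groups. Foxa2, an endoderm forkhead factor, had 5.28 and 3.43 normalised reads in mCherry, 4.42 and 33.3 in FL and 168 and 199 in C3+14. The receptor gene Pdgfra had 23.1 and 24.0, 8.84 and 28.6, and 193 and 152 in the same order. Foxa2 differed by 3.75 (2.42 and 5.08 without FL replicate 1 and 2) and Pdgfra by 3.34 (2.54 and 4.13). The endoderm factors Gata6, Gata4 and Sox17 were higher by 2.33, 3.51 and 1.68. Gata4 was 1.55 without FL replicate 1 and was not called in a fit of the 4 libraries alone, and Sox17 was not called without FL replicate 2 (1.16) or either C3+14 library (1.52 and 1.83). Hnf4a was called with 2 reads or fewer in every FL and C3+14 library, so it gives no fold. The basement membrane genes Lama1, Lamc1, Col4a1, Col4a2 and Sparc, which are highly expressed in that lineage, were not called. Lamb1, at 0.95, was called without FL replicate 2 (1.27) or C3+14 replicate 2 (1.01). Among trophectoderm genes 3 of 15 were higher (Gata3, Eomes and Tfap2a) and 1 lower (Tfap2c), beside 16.8% and 9.54% of all genes tested, while Cdx2, which defines that lineage, had 6.70 and 0 in C3+14. Gata3 at 2.63 was 1.85 and not called without FL replicate 1, Tfap2a at 1.09 was 0.72 there and was not called without either C3+14 library (1.01 and 1.17), and Tfap2c at -1.02 was -0.56 without FL replicate 2 and -0.71 without C3+14 replicate 2. The Tfap2c call was lost in edgeR and under 7 of 14 alternatives in all. Sox17 and Tfap2a are shared-sequence genes (at least 10%).

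Markers of cell types that the cultures could hold were read in the same way, beside the 16.8% of all genes tested that limma called higher and the 9.54% lower. Of neural markers 2 of 5 tested were higher, Neurog2, which had 0 and 3 reads in FL and 95.5 and 97.2 normalised reads in C3+14, at least 24.1-fold (fitted 5.51, or 4.41 and 6.61 without FL replicate 1 and 2), and Pax6 at 2.25. Sox1 became a call, at 3.74, without FL replicate 2. Of fibroblast markers, included because feeder cells can carry over, 3 of 6 were higher, at low levels: Lum had 0 reads in both FL and both mCherry libraries and 31.8 and 50.2 in C3+14, at least 10.3-fold, Col1a2 had 21.8 and 37.3 in C3+14, Col3a1 had 11.7 and 4.86, and Col1a1 was not called at 20.1 and 19.4 against 54.5 and 40.5 in FL. Col1a2 at 2.40 was called only without FL replicate 1 (3.75) among the fits with 1 library left out, being 1.05 without FL replicate 2 and 2.78 and 2.03 without C3+14 replicate 1 and 2. Col3a1 at 2.54 was not called without FL replicate 1 (1.98) or C3+14 replicate 1 (1.99). Of the 6 fibroblast markers, edgeR called 2 higher and DESeq2 called 1. The summed normalised reads of the 6 fibroblast markers were 160.6 and 90.5 in FL and 147.4 and 174.9 in C3+14. The part of such cells in the results was not tested. None of the 3 mesoderm markers was called by limma, edgeR or DESeq2, with 1 at an unadjusted limma p under 0.05, and T became a call, at -2.73, without FL replicate 2. Of the epiblast and Nodal list, 3 of 14 were higher and 1 lower, beside 16.8% and 9.54% of all genes tested. Without FL replicate 2, Lefty2 (-2.64) and Dnmt3a (-1.05) became calls lower and Pou3f1 (1.29) and Fzd2 (1.07) higher. Nodal, a growth factor of the early embryo, had 1483 and 1462 in mCherry, 42.7 and 83.3 in FL and 442.3 and 391.95 in C3+14. Otx2 at 3.07 was 1.11 without FL replicate 1 and lost its call there and without either C3+14 library (2.87 and 3.28), and Dnmt3b was lower, at -1.11 (-0.99 without FL replicate 1, -0.99 after quantile normalization and -0.86 with scaling by total reads, not called in any of these). Among germline genes 2 of 18 were higher, Tdrd1 and Dazl, beside 16.8% of all genes tested. Tdrd1 had 281 and 171 in FL and 766 and 863 in C3+14, a difference of 1.88 that was not called without FL replicate 2 (1.53) or C3+14 replicate 2 (1.80). Dazl at 1.15 was 0.33 without FL replicate 1, 1.23 without C3+14 replicate 1 and 1.07 without C3+14 replicate 2, and was called in none of these. Asz1 (1.23), Sycp1 (1.12) and Tex19.1 (1.05) became calls without FL replicate 1, and Brdt (1.81) without FL replicate 2.

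Some pluripotency genes were low with FL and near mCherry with C3+14, and others were low with both constructs. Of 22 genes, 5 were higher with C3+14 than with FL and 3 lower, beside 16.8% and 9.54% of all genes tested. Klf4, a factor of the naive state, had 3203 and 3108 normalised reads in mCherry, 276 and 736 in FL and 2771 and 2813 in C3+14, and its log2 difference between the constructs was 2.63 (SE 0.36, limma adjusted p 9.34e-05). Nr5a2, a nuclear receptor active in the early embryo, had 1698 and 1701 in mCherry, 236 and 237 in FL and 1392 and 1357 in C3+14. Klf5 was higher by 1.71 and was not called between C3+14 and mCherry. Tbx3 was higher by 2.21 but still lower than mCherry. Klf4 and Tbx3 were at 1.92 and 1.498 without FL replicate 1, and at 3.34 and 2.93 without FL replicate 2. By contrast Esrrb had 13469 and 13881 in mCherry, 2032 and 2871 in FL and 2232 and 2153 in C3+14, so the constructs overlapped well below the control.

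The core factors were not called between the constructs: Pou5f1 differed by -0.58 (SE 0.15), Sox2 by 0.67 (SE 0.28), Nanog by 0.29 (SE 0.24) and Zfp42 by 0.84 (SE 0.21). Sox2, Nanog and Zfp42 were lower than mCherry with both constructs. Without FL replicate 2, Sox2, Zfp42 and Sall4 were called higher, at 1.26, 1.04 and 1.04. Sox2 had 4962 and 4866 normalised reads in mCherry, 463 and 1039 in FL and 1183 and 1037 in C3+14. The genes lower with C3+14 were Lin28a, an RNA-binding inhibitor of let-7 maturation, at -2.07, Utf1, a chromatin factor, at -1.49 and Tcl1, an AKT coactivator, at -1.34. Lin28a had 2976 and 2784 in mCherry, 585 and 165 in FL and 78.7 and 68.0 in C3+14. Its difference was -1.17 without FL replicate 1 and was not called in a fit of the 4 libraries alone, and Tcl1 was at -1.25 and not called without C3+14 replicate 2. Fgf4 and Dppa3 became calls, at -1.39 and 3.18, without FL replicate 1.

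Cell cycle genes showed single changes. Of 24 cyclins, kinases and inhibitors tested, 5 were higher and 2 lower, beside 16.8% and 9.54% of all genes tested. The higher ones were the inhibitor genes Cdkn1a, Cdkn2c (2.41), Cdkn2b (2.11) and Cdkn1b (1.06) and the mitotic kinase gene Aurka (1.48). Cdkn1b was at 0.42 without FL replicate 1 and 0.94 without C3+14 replicate 1, not called in either. The lower ones were the D-type cyclins Ccnd1 and Ccnd3, which drive entry into S phase: Ccnd3 had 8087 and 8655 normalised reads in mCherry, 7648 and 8848 in FL and 3721 and 3717 in C3+14, a log2 difference of -1.15, or -0.89 after quantile normalization and -0.90 with scaling by total reads, both of which ended the call. Ccnd1 at -2.04, of which 21.6% is shared, was -1.72 without FL replicate 1 and -1.73 without C3+14 replicate 1, not called in either. Cdk1 and Ccnb1 were not called. Cell junction genes were among the few with more members lower than higher, 4 against 1 of 18. The higher one was Ocln, the tight junction gene occludin. The claudin gene Cldn4 had 1139 and 1156 in mCherry, 60.4 and 96.4 in FL and 26.8 and 19.4 in C3+14, a difference of -1.70, but -1.37 without FL replicate 2 and -1.48 without C3+14 replicate 2, both not called. The cadherin gene Cdh2 had 134 and 138, 169 and 91.7, and 48.6 and 42.1 in the same order, and its call, at -1.44, was lost without FL replicate 1 (-1.003) or C3+14 replicate 2 (-1.34). Ahnak2, at -4.74, lost its call without FL replicate 2 (-3.29) or C3+14 replicate 1 (-3.70).

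Some regulators of the 2-cell state and of chromatin were called between the constructs, and most were not. Over all genes tested limma called 16.8% higher and 9.54% lower, the background for each list in this paragraph. Of 19 known repressors of that state, 4 were higher and 0 lower in limma, edgeR and DESeq2, and 13 had an unadjusted limma p under 0.05, 4 of them lower. The 4 called were Rybp, a Polycomb component (1.66), the nuclear receptors Nr2c1 (1.61) and Nr2c2 (1.24, a shared-sequence gene), and Rif1 (1.18). Trim28, Setdb1, Kdm1a and Chaf1a were not called. None of 21 coactivators and remodellers, with Ep300 and Crebbp among them, was called by limma or DESeq2. edgeR called 1, and 14 of the 21 had an unadjusted limma p under 0.05, beside 10627 of all 21584 genes tested. Arid1b, at -0.98, was called without FL replicate 1 (-1.05) or C3+14 replicate 2 (-1.06), and Smarcd1, at -0.97, without FL replicate 2 (-1.05). In the DNA methylation list of 14, Gadd45a (15.6% shared, 2.65, or 3.33 and 1.97 without FL replicate 1 and 2) and Apobec1 (1.27) were higher, and Tet3, an oxidase of methylcytosine (-1.23), Dnmt3b and Gadd45g were lower. The Tet3 call was lost with scaling by total reads (-0.98). Gadd45g, at -2.73, was not called without FL replicate 1 (-1.83) or C3+14 replicate 1 (-2.04). In the cholesterol pathway 4 of 20 were higher, led by Sqle, squalene epoxidase, at 782 and 858 in FL and 3022 and 3264 in C3+14, and 1 was lower, Pmvk at -1.0. Pmvk was not called without FL replicate 2 (-0.94) or C3+14 replicate 2 (-0.93). Glycolysis had 1 call among 19 gene records, Aldoc at 1.07 (0.90 and not called without FL replicate 1), and the urea cycle list had 2 of 12, Arg2 and Cps1. The SR splicing list had 2 higher, the kinase genes Clk1 and Clk4, and 1 lower, Srsf2 (20.7% shared), at -1.17 and, no longer called, at -0.93 with scaling by total reads, and the nonsense-mediated decay list had 1 lower, Smg9.

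The low-copy coding genes with the largest differences were read across all 7 groups of the table, which adds the chimeras C1C3a, C1C3b and C1C3c and the construct C1+14. In 6 of the 8 genes lowest in C3+14 against FL, C1C3a had the highest level after FL. Trpm2, a cation channel (chromosome 10, 77907722 to 77970563), had 3507 and 1722 normalised reads in FL, 1060 and 1242 in C1C3a, 213 and 191 in C1C3b, 113.8 and 110.2 in C1C3c, 79.7 and 106 in C1+14, 35.2 and 35.6 in C3+14 and 5.28 and 7.72 in mCherry. C3+14 was thus the lowest of the 6 constructs, with a log2 difference from FL of -6.08 (SE 0.30, limma adjusted p 1.38e-08). Zan, a sperm protein gene, had 2209 and 1240 in FL, 526 and 664 in C1C3a and 41.9 and 42.1 in C3+14, which was close to the 37.6 and 38.6 of mCherry. Omd, the bone proteoglycan osteomodulin, and Ccdc62 were lower, at -5.08 and -3.98. Nlrc3, an inhibitor of innate immune signalling, and Siglec1, a macrophage lectin, were lower, at -4.56 and -4.40, and in both C3+14 lay below mCherry and FL above it. Cpne4 and Trh met the rule but rest on a single FL library each: Cpne4 had 13.3 and 2312 in FL, and Trh 1055 and 82.1. Without the high library their differences were -1.73 and -1.44, and neither was called. Neither was called without either C3+14 library, at -5.42 and -5.38 for Cpne4 and -3.30 and -3.25 for Trh.

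At the other end were genes with many reads in C3+14 and few or none in FL. Cyp2g1, a cytochrome P450 gene of the olfactory mucosa (chromosome 7, 26808892 to 26821205), had 0 reads in both FL libraries and 410 and 363 normalised reads in C3+14, at least 96.8-fold higher. In the other 5 groups it had at most 2.21. Ifi47, an interferon-inducible GTPase gene (chromosome 11, 49076587 to 49096974), had 116 and 113 in C3+14 and at most 0.731 in any other library, at least 28.7-fold higher than in FL. These were the only 2 low-copy genes with at least 50 reads in both C3+14 libraries and at most 3 in each of the other 12. Tenm1, a teneurin of neuronal membranes on chromosome X, had 7.37 and 1.19 in FL, 1020 and 1077 in C3+14 and between 11.1 and 90.3 in the chimeras and C1+14, a log2 difference of 7.94 (SE 0.64), or 8.90 and 6.97 without FL replicate 1 and 2.

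Most of the remaining genes at that end were also on in another chimera. Fmo2, a flavin monooxygenase gene, had 154 and 198 normalised reads in C3+14 and 476 and 659 in C1C3b, against 0 and 1.19 in FL and 19.9 and 0 in C1C3a. Khdrbs2, an RNA-binding protein gene, had 379 and 384 in C3+14, 1285 and 1296 in C1C3b and 4.42 and 7.14 in FL. The protocadherin genes Pcdh18 and Pcdhb5 had the same order, highest in C1C3b, then C3+14, and at most 1.19 in FL. Exph5, a regulator of vesicle transport, had 648 and 640 in C3+14, 597 and 704 in C1C3b and 511 and 218 in C1C3a but 2.95 and 5.95 in FL. Among shared-sequence genes the largest increases were those of Mab21l2, Gm5941 and Iglv2, at least 81.8-fold, 95.4-fold and at least 42.6-fold. Their fitted log2 differences without FL replicate 1 and 2 were 8.36 and 7.05, 5.31 and 7.83, and 5.65 and 7.40. Among other low-copy transcripts, Gm4419 and BC051077 were lower, at -5.71 and -5.47, and Has2os and Gm43333 were at least 92.7- and 88.8-fold higher, Gm43333 with 194 and 515 normalised reads in C3+14 (fitted 9.01 and 7.61 without C3+14 replicate 1 and 2). DESeq2 did not call Gm43333 or Gm5941. Has2os is named as antisense to Has2, and the strand setting of the counting is not given in the sources used here.

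**Figure D5:**
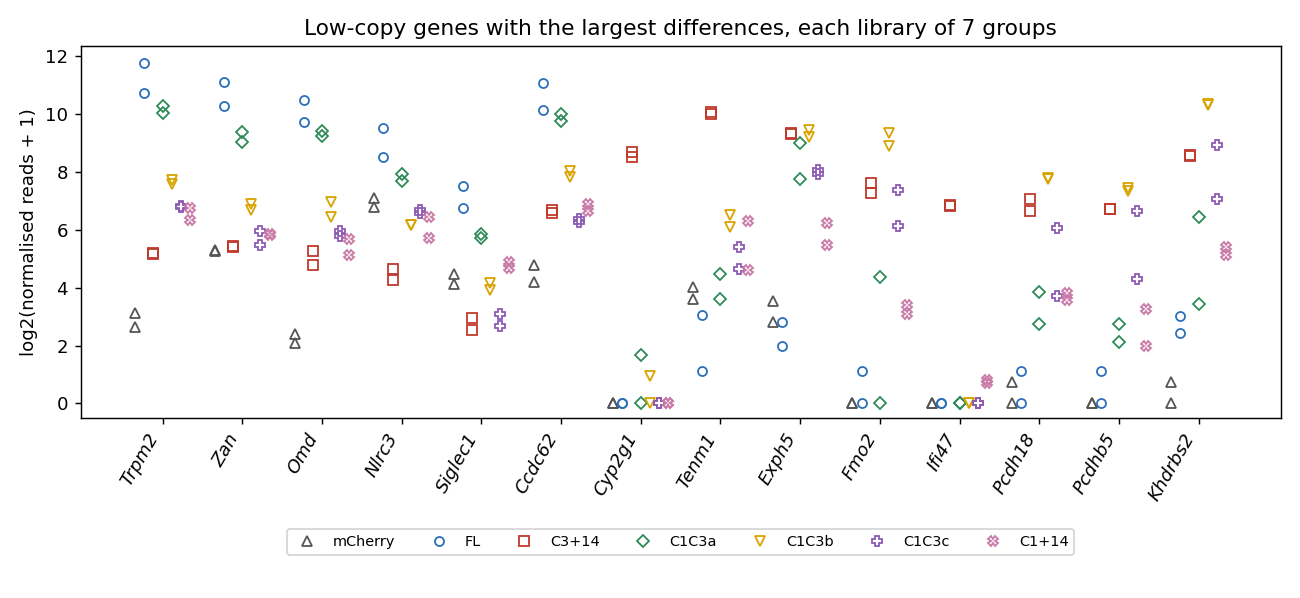
Normalised reads as log2(value + 1) in each library of 7 groups for 14 low-copy coding genes with the largest differences between C3+14 and FL, with 1 symbol per group as in the key. From Trpm2 to Ccdc62 FL is the highest group and C1C3a the next, and from Cyp2g1 to Khdrbs2 FL is at or near 0 while C3+14 has at least 98.8 normalised reads.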

How the data were processed

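RNA-seq of mouse embryonic stem cells was taken from a table of 14 libraries in 7 groups, of which 4 libraries are compared here. Per the labels, libraries were made with a stranded mRNA kit. Per the submitters' processing notes, Trim Galore 0.5.0, FastQC, DESeq2 and the build mm10 were used. The aligner, the counter, its strand setting and the treatment of reads with several matches are not given in the sources used here. The deposited values are a signal, gene read counts that the authors divided by a size factor per library: 100% of 371750 values above 0 came out as whole reads within 0.001 of a read.

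Values were tested as log2(value + 1) with limma 3.58.1 (R 4.3.3, eBayes with trend, 1 mean per group, all 14 libraries) over 21584 of 55487 genes with at least 10 normalised reads in at least 2 libraries. Calls needed a Benjamini-Hochberg adjusted p under 0.05 and a log2 difference of at least 1 in size. Fold changes on this scale understate low genes. Folds against a group with at most 3 reads in each library use that floor and are written "at least". Symbols came from GENCODE M21 (99.5% matched). The script was tested on simulated data. Alternatives included edgeR 4.0.16 and DESeq2 1.42.0 on the recovered reads. Genes, lists and members were chosen with earlier results of these data known. By rule, the text names 13 fixed genes, the 8 low-copy coding, 3 shared-sequence and 2 other low-copy genes most changed each way among called genes (the higher group averaging 100 or more, libraries not overlapping), and the 2 called members most changed each way in every list. Other list members were named after their values were seen, to account for the lists. A few list members are not reported here.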

Additional observations from a re-analysis of the deposited data

Results flagged for a closer look

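In 6 of the named genes, FL and C3+14 were called on opposite sides of mCherry and were called different from each other in limma, higher or lower in 2 of 2 libraries each. Nlrc3 was above mCherry with FL (log2 difference 2.07) and below it with C3+14 (-2.49), a difference between constructs of -4.561. Siglec1 followed the same order, at 2.84 and -1.56, with -4.405 between constructs, on 4 and 3 reads in C3+14 against 25 and 25 in mCherry. The other 4 were below mCherry with FL and above it with C3+14. These were Tenm1 (-1.71 and 6.23, with 7.937 between constructs), Eda2r (-1.76 and 1.45, with 3.212), Atf3 (-1.22 and 1.00, with 2.222) and Pramef8 (-1.91 and 1.28, with 3.191). For Tenm1 the level below mCherry rests on 5 and 1 reads in FL against 23 and 13 in mCherry. Both contrasts use the same mCherry libraries. Over all genes tested, 75 low-copy and 35 shared-sequence genes were lower with FL and higher with C3+14 than with mCherry, and 7 and 23 the reverse.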

How the results depend on the processing

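Over 14 alternatives the number of genes called between C3+14 and FL ranged from 4354 to 6740 beside 5686, and 4169 to 5540 of the 5686 were called in the same direction, with 0 in the opposite one. Leaving out 1 library at a time gave 4354 to 5917 calls, 2616 to 3717 of low-copy and 1726 to 2181 of shared-sequence genes. Of 100 called named genes, 64 were called in the same direction under every alternative. Low-copy calls fell to 1773 when any shared 50-mer made a gene shared-sequence, and shared-sequence calls were 3888 with that limit and 955 with a limit of 50%. The share of calls that were higher in C3+14 was 74.2% with scaling by total reads beside 63.8%. Among low-copy genes it was 67.6% after quantile normalization and 87.9% with scaling by total reads beside 77.7%, and among shared-sequence genes 57.5% with the limit of any 50-mer beside 42.1%. The cause of these differences was not tested, other than that the limits change which genes are counted.

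Among the 109 named genes, the direction of 5 reversed under an alternative, and none of these 5 was called in the main fit. Without FL replicate 1 and 2 in turn, Duxbl1 was 0.1546 and -0.004801, Nanog -0.02168 and 0.5979, Tcstv1 0.6105 and -1.336, and Tcstv3 0.5006 and -1.123. Duxbl1 was -0.01981 with size factors from low-copy genes and Zscan4c 0.4951 after quantile normalization. Same-numbered replicates share only a number (correlation of their deviations -0.0309), and with the replicate block 5599 genes were called. Calls against mCherry ranged from 8589 to 12823 for FL and from 9217 to 12189 for C3+14. With 2 libraries a group and FL replicates that differ, genes of few reads are the least certain.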
